A study of Mus musculus with 12 samples.

Results

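The 10 genes described here belong to the program of natural killer (NK) cells and cytotoxic lymphocytes. They are the receptor genes Ncr1, Klrb1c, Klrk1 and Klre1, the effector genes Gzma, Gzmb, Prf1 and Nkg7, and the transcription factor genes Eomes and Tbx21. They were taken by symbol from the 12 count tables of the series, in which each symbol had 1 entry. They make up 10 of 52553 gene-level features, and all 10 were among the 20135 features that passed the filter on low counts.

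RNA was sequenced from cells sorted magnetically for CD115, the receptor encoded by Csf1r that marks monocytes, from the spleen or the peripheral blood of male C57BL/6 mice, whose age is not given in the sources used here. The donors were either intact, with spleen and liver in place, or had undergone 70% liver resection (PH70%) 24 h before, also with the spleen in place. The labels name no sham operation for the intact donors. The study's methods describe isoflurane anaesthesia, abdominal surgery and meloxicam for operated mice. In these groups they cannot be told apart from the loss of liver tissue, so PH70% stands for all of them together. Each of the 4 groups (intact spleen, spleen after PH70%, intact blood, blood after PH70%) held 3 libraries, and every library pooled the cells of 5 mice. The sources do not say which pools shared animals or a preparation day, so the p-values measure the spread between these libraries.

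NK cells are innate lymphocytes that kill infected, transformed or stressed cells without prior priming. They weigh signals from activating and inhibitory receptors and then release granules in which perforin opens the way for granzymes into the target cell. Eomes and T-bet (the product of Tbx21) control their development and maturation, and cytotoxic T cells share much of this program, including Klrk1, Nkg7, perforin and the granzymes.

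Library totals ran from 36990033 to 46401368 estimated counts, and single members from 0 counts (Klre1) to 5908 counts (Gzma) in a library. Values are given as CPM, counts scaled to a common library size after trimmed-mean normalisation, for libraries 1, 2 and 3 of each group in that order. Haemoglobin genes took 13.2% to 34.2% of the counts in blood. Their splenic share was 0.0814% to 0.363% in intact mice and 0.795% to 3.47% after PH70%. Intact blood library 3 stood apart from the other intact blood libraries. Its 7 proliferation markers summed to 1569 CPM against 89.9 and 70.1 CPM in libraries 1 and 2, and its 12 T-cell markers to 4073 CPM against 1953 and 1820 CPM. The T-cell list split in library 3. Cd8a (12.9 against 70.5 and 65.3 CPM), Cd8b1, Cd5 and Il7r were lower than in libraries 1 and 2, and the other measured T-cell markers were higher. The 7 B-cell markers of library 3 summed to 550 CPM against 1728 and 2492 CPM. Values without this library are therefore given beside the results on members and other NK genes that it touches most.

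The start sites of the members were read from RefSeq promoter windows (mouse build GRCm38.p6, 250 bases before to 50 bases after the start), which held all 10 members. The counts themselves rest on GRCm39 according to the submitters' processing notes, so these coordinates serve only to locate the windows. The windows were searched on both strands for TGTGGTT, a form of the RUNX motif, and GGTGTGA, a form of the T-box motif bound by Eomes and T-bet. Windows of 5 members held TGTGGTT (Ncr1, Klrk1, Klre1, Gzma and Gzmb), against 6.09% of 27025 genes in the table. The window of 1 member, Nkg7, held GGTGTGA, against 4.6% of all genes. A receptor, both granzymes and Nkg7 are shown as members of different roles whose windows hold a match, with the matched letters in capitals.
Ncr1: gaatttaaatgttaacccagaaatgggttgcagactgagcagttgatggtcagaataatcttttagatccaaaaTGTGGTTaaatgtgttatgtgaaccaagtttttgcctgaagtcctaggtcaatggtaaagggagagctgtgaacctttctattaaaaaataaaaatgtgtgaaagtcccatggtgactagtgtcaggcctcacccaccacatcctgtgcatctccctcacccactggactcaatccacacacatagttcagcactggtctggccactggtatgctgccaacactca
Gzma: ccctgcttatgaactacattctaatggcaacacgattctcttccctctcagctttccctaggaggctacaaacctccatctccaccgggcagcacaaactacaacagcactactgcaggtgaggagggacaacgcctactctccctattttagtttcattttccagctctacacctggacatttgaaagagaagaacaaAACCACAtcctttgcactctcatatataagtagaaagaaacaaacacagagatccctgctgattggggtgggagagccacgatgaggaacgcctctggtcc
Gzmb: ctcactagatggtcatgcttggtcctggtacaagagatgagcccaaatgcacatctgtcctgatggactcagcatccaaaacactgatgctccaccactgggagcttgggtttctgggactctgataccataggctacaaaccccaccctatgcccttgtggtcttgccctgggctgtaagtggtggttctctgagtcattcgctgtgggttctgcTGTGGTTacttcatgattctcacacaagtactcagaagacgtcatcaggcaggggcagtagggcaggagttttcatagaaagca
Nkg7: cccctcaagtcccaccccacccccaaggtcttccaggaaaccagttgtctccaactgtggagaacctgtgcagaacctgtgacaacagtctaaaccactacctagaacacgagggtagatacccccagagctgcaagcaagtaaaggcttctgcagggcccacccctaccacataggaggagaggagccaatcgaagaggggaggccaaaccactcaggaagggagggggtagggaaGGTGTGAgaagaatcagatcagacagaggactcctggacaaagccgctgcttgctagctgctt
A gene was counted if any of its windows held the letters. The Ncr1 window shown is chr7:4337465-4337764 on the plus strand, and its match begins 176 bases before the start site. A second Ncr1 window, chr7:4337474-4337773, holds the same match at position -185. Klre1 also had a second window, which did not hold TGTGGTT. The Gzma window is chr13:113100932-113101231 on the minus strand, and its match, in reverse complement, begins at position -51. The Gzmb window is chr14:56262285-56262584 on the minus strand, with the match at position -34. The Nkg7 window is chr7:43436888-43437187 on the plus strand, with the match at position -13. Shorter and longer forms were also counted. TGTGGT lay in the windows of 8 members (18.9% of all genes), GGTGTG and AGGTGTGA each in that of 1 (21.4% and 1.48%), the ETS letters AGGAAGT in 2 and GGAAGT in 3 (10.7% and 26.5%), and the AP-1 letters TGACTCA in 2 (5.95%). TGTGGT lies within TGTGGTT, and GGTGTG can overlap TGTGGT, so these counts are not independent. A match is a description of the letters and not a bound site.

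The members were expressed at low levels in a fraction sorted for another cell type, and no library lacked them as a group. The 5 NK cell markers Ncr1, Klrb1c, Klre1, Klrd1 and Eomes summed to 25.5 to 57.4 CPM in intact spleen, 1.99 to 10.1 CPM in spleen after PH70%, 19.5 to 117 CPM in intact blood and 10.7 to 25.8 CPM in blood after PH70%. The 10 monocyte markers summed to 3436 to 15017 CPM over the 12 libraries, and all of them were detected. In bulk RNA of this kind, fewer cytotoxic lymphocytes in the sorted fraction and less RNA per such cell cannot be told apart.

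For 7 members (Ncr1, Klrb1c, Klre1, Gzma, Prf1, Nkg7 and Eomes) the group means had the same order, with intact blood highest, then intact spleen, blood after PH70% and spleen after PH70%. Klrk1 was lowest in blood after PH70%, Gzmb was higher in blood after PH70% than in intact spleen, and Tbx21 had nearly equal means in intact blood and intact spleen (10.39 and 10.42 CPM). Intact spleen and blood after PH70% were not set against each other in a test. Libraries of a group also moved as a block. Intact spleen library 2 was the highest of its group for 10 of 10 members, blood library 3 after PH70% the lowest for 10 of 10, and spleen library 1 after PH70% the highest for 9, all but Klrk1. The sum over the 10 members was 127, 217 and 118 CPM in intact spleen, 66.4, 23.5 and 21.0 CPM in spleen after PH70%, 351, 456 and 170 CPM in intact blood, and 106, 135 and 52.0 CPM in blood after PH70%.

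**Figure D1:**
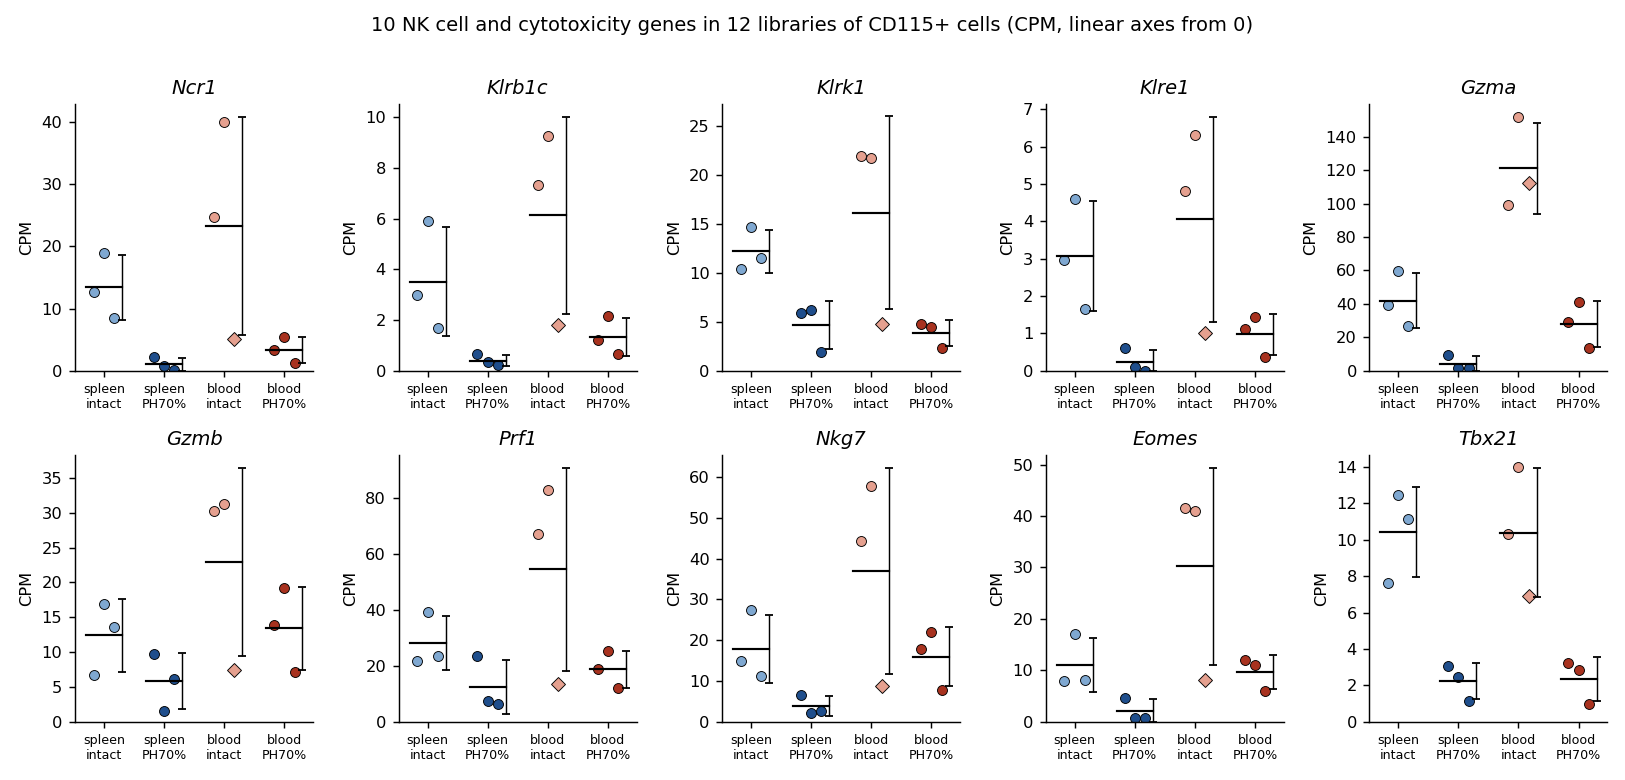
Each panel plots 1 member in CPM (linear axis from 0) in the 12 libraries, 3 per group, with the group mean as a line and the SD as a bar that is not drawn below 0. The diamond is intact blood library 3, which is the lowest intact blood library for 9 of 10 members but not for Gzma, at 112 CPM.

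Resection was first compared in blood, where the question was which transcripts of the sorted fraction differed 24 h after the operation. A member was called at an adjusted p under 0.05 with an absolute log2 fold change above 1 (edgeR, Benjamini-Hochberg over 20135 features). Klrk1 and Tbx21 fell in blood, so 2 of 10 members were called lower, against 6.11% of all features. None was called higher, against 7.8% of all features. All 10 log2 fold changes were negative, with a median of -2.07, while the median over all features was -0.10. At an unadjusted p under 0.05 the count in blood was 6, against 10.5% of all features. The libraries did not overlap for 3 members (Klrk1, Gzma and Tbx21), against 19% of all features lower in this way. In spleen, 0 of 10 members were called lower, against 0.596% of all features, or higher, against 0.78%. All 10 log2 fold changes were again negative, with a median of -2.32 against 0.05 over all features. At an unadjusted p under 0.05 the splenic count was 8, against 4.25% of all features, and with DESeq2 it was 7, against 3.02%. The splenic libraries did not overlap for 8 members, all but Gzmb and Prf1, against 17.7% of all features.

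**Figure D2:**
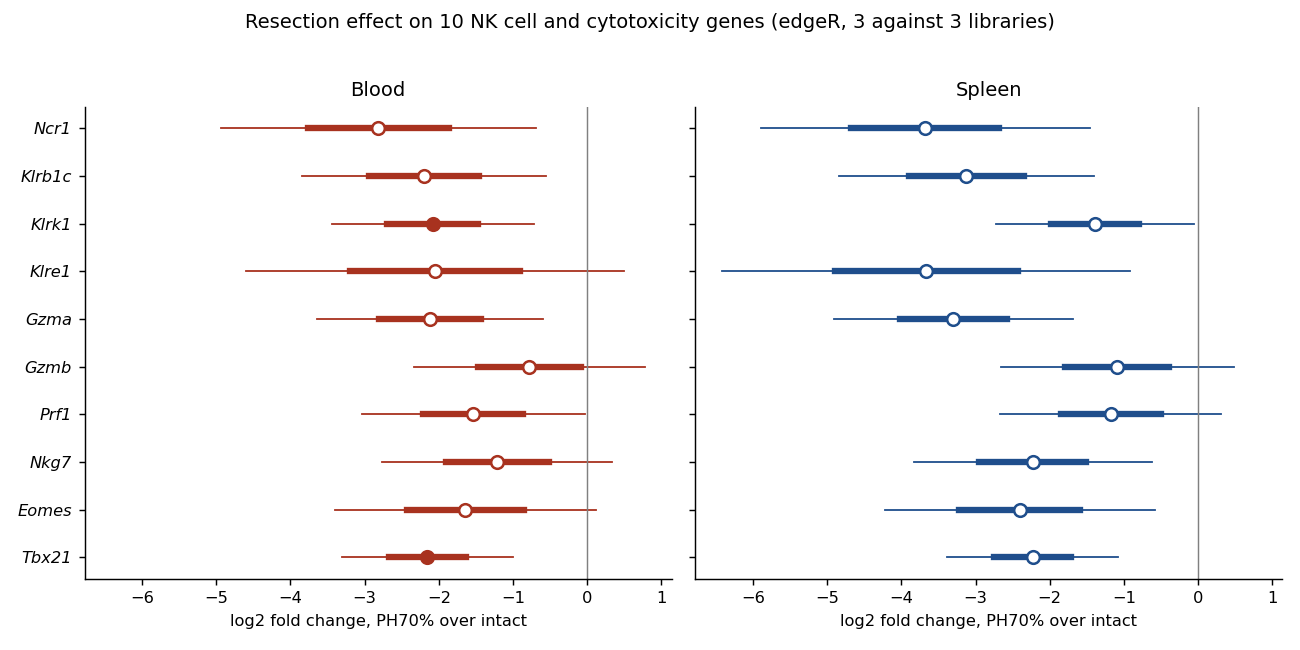
Points are log2 fold changes of PH70% over intact in blood (left) and spleen (right), thick bars are ± 1 SE and thin bars 95% confidence intervals. Filled points mark the called genes, Klrk1 and Tbx21 in blood, and all 20 points lie below 0.

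Among the receptors, Ncr1 encodes NKp46, an activating receptor that in mice is largely restricted to NK cells and related innate lymphocytes. Ncr1 measured 24.7, 40.0 and 5.02 CPM in intact blood and 3.36, 5.37 and 1.18 CPM in blood after PH70%. It measured 12.7, 19.0 and 8.47 CPM in intact spleen and 2.22, 0.742 and 0.172 CPM in spleen after PH70%. The 3 splenic libraries of resected mice were all below the 3 intact ones, whereas in blood 1 intact library reached into the range of the resected ones. The log2 fold change was -2.82 ± 0.95 (SE) in blood (adjusted p = 0.0609) and -3.68 ± 1.00 in spleen (adjusted p = 0.0838), so Ncr1 missed the threshold in both. Without intact blood library 3 it passed in both, at -3.30 (adjusted p = 0.0285) and -3.68 (adjusted p = 0.0347).

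Klrb1c encodes NK1.1, the surface antigen by which NK cells of C57BL/6 mice are commonly identified. It measured 7.32, 9.28 and 1.79 CPM in intact blood and 1.22, 2.14 and 0.647 CPM in blood after PH70%. In spleen it measured 2.99, 5.89 and 1.68 CPM before and 0.654, 0.327 and 0.221 CPM after PH70%. As for Ncr1, the splenic groups were separate and the blood groups overlapped only through intact library 3. Its log2 fold change was -2.20 ± 0.74 in blood (adjusted p = 0.0599) and -3.12 ± 0.77 in spleen (adjusted p = 0.0662). Both values passed without intact blood library 3, at -2.64 (adjusted p = 0.0235) and -3.13 (adjusted p = 0.0251).

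Klrk1 encodes NKG2D, an activating receptor for stress-induced ligands that is carried by NK cells and activated CD8 T cells. It measured 21.9, 21.8 and 4.81 CPM in intact blood and 4.73, 4.45 and 2.28 CPM in blood after PH70%. It measured 10.4, 14.7 and 11.5 CPM in intact spleen and 5.86, 6.24 and 1.87 CPM in spleen after PH70%. Both pairs of groups were separate, in blood by the narrow margin between 4.81 and 4.73 CPM. Klrk1 fell in blood, by a log2 fold change of -2.08 ± 0.61 (95% confidence interval -3.44 to -0.72, adjusted p = 0.0370), or 4.23-fold. In spleen the value was -1.39 ± 0.60 (adjusted p = 0.223), the smallest splenic difference among the 4 receptors. The blood call was lost without any one of 9 libraries: intact spleen library 1, 2 or 3 (-2.09 each), spleen library 1 after PH70% (-2.09), blood library 1, 2 or 3 after PH70% (-2.27, -2.22 and -1.81), and intact blood library 1 or 2 (-1.78 and -1.82). It was also lost with only the blood groups in the fit (adjusted p = 0.0906) and without the low-count filter (adjusted p = 0.0557). Without intact blood library 3 it held, at -2.52 (adjusted p = 0.00859).

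Klre1, a lectin-like receptor of NK cells, had the lowest counts of the 10 members. It measured 4.82, 6.32 and 1.00 CPM in intact blood and 1.13, 1.43 and 0.366 CPM in blood after PH70%. In intact spleen it measured 2.97, 4.59 and 1.64 CPM, and after PH70% 0.607, 0.109 and 0 CPM, which are 26, 5 and 0 counts. The splenic groups were separate, and the library at 0 lay under the level of 3 counts, 0.0737 CPM. Its log2 fold change was -2.05 ± 1.15 in blood (adjusted p = 0.226) and -3.66 ± 1.24 in spleen (adjusted p = 0.134), the widest errors among the members. The blood value was -2.52 (adjusted p = 0.154) without intact blood library 3. The Klrb1 and Klr genes have close paralogs, and the counting tool is not given in the sources used here, so reads shared between copies could have been split between them.

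Of the effectors, Gzma encodes granzyme A, a serine protease of cytotoxic granules. It measured 99.1, 152 and 112 CPM in intact blood and 29.3, 40.9 and 13.4 CPM in blood after PH70%. It measured 39.5, 59.4 and 26.9 CPM in intact spleen and 9.48, 1.86 and 1.43 CPM in spleen after PH70%. Both pairs of groups were clearly separate, and Gzma was the only member that was as high in intact blood library 3 as in libraries 1 and 2. Even so its log2 fold change lay just outside the threshold in blood (-2.12 ± 0.68, adjusted p = 0.0521) and in spleen (-3.30 ± 0.72, adjusted p = 0.05002). The blood value was -2.17 (adjusted p = 0.0731) when intact blood library 3 was left out. In spleen it passed with the haemoglobin genes left out (-3.31), with at least 10 counts asked of every library (-3.30), without spleen library 1 after PH70% (-4.67, adjusted p = 0.0286) or without intact blood library 3 (-3.30, adjusted p = 0.0339).

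Gzmb encodes granzyme B, which starts apoptosis in target cells and is made mainly on activation. It measured 30.2, 31.3 and 7.43 CPM in intact blood and 13.8, 19.2 and 7.21 CPM in blood after PH70%. In spleen it measured 6.73, 16.9 and 13.5 CPM before and 9.69, 1.59 and 6.19 CPM after PH70%. The groups overlapped in both tissues, and Gzmb had the smallest differences of the 10 members. Its log2 fold change was -0.78 ± 0.70 in blood (95% confidence interval -2.33 to 0.78, adjusted p = 0.461) and -1.09 ± 0.70 in spleen (-2.66 to 0.48, adjusted p = 0.415). These intervals hold both no difference and a fall of more than 2 on the log2 scale. Leaving out intact blood library 3 gave -1.20 in blood (adjusted p = 0.227).

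Prf1 encodes perforin, the pore-forming protein of the granules. It measured 67.1, 83.0 and 13.5 CPM in intact blood and 19.0, 25.4 and 12.1 CPM in blood after PH70%. It measured 21.7, 39.3 and 23.4 CPM in intact spleen and 23.5, 7.38 and 6.47 CPM in spleen after PH70%. The groups overlapped in spleen through library 1 after PH70% and in blood through intact library 3. Its log2 fold change was -1.53 ± 0.67 in blood (adjusted p = 0.132) and -1.17 ± 0.67 in spleen (adjusted p = 0.352). Without intact blood library 3 the blood value passed (-2.00, adjusted p = 0.0337).

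Nkg7 encodes a membrane protein of cytotoxic granules needed for their release. It measured 44.2, 57.8 and 8.78 CPM in intact blood and 17.9, 21.9 and 7.88 CPM in blood after PH70%. It measured 14.9, 27.3 and 11.3 CPM in intact spleen and 6.63, 2.03 and 2.75 CPM in spleen after PH70%. The splenic groups were separate, and in blood only intact library 3 overlapped with the resected libraries. Its log2 fold change was -1.22 ± 0.69 in blood (adjusted p = 0.237) and -2.23 ± 0.72 in spleen (adjusted p = 0.121). The splenic value passed without intact blood library 3 (-2.24, adjusted p = 0.0416), while the blood value did not (-1.69, adjusted p = 0.0684).

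Of the transcription factors, Eomes is needed for mature NK cells and is also made in some memory T cells. It measured 41.5, 41.0 and 8.17 CPM in intact blood and 11.99, 11.1 and 5.995 CPM in blood after PH70%. In spleen it measured 7.89, 17.1 and 8.09 CPM before and 4.67, 0.764 and 0.811 CPM after PH70%. The pattern was that of Nkg7, with separate splenic groups and a blood overlap through intact library 3. Its log2 fold change was -1.64 ± 0.79 in blood (adjusted p = 0.165) and -2.41 ± 0.82 in spleen (adjusted p = 0.136). Neither passed without intact blood library 3, at -2.10 (adjusted p = 0.0712) and -2.41 (adjusted p = 0.0611).

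Tbx21 encodes T-bet, which is shared by NK cells, type 1 helper T cells and effector CD8 T cells. It measured 10.3, 14.0 and 6.88 CPM in intact blood and 3.20, 2.82 and 0.957 CPM in blood after PH70%. In spleen it measured 7.64, 12.46 and 11.2 CPM before and 3.08, 2.45 and 1.13 CPM after PH70%. Every library of resected mice was below every intact library in both tissues. Tbx21 fell in blood, by a log2 fold change of -2.16 ± 0.52 (95% confidence interval -3.31 to -1.01, adjusted p = 0.0168), or 4.47-fold. The splenic value was of the same size, -2.23 ± 0.52, and just missed the threshold (adjusted p = 0.0568). The blood call was lost without blood library 2 after PH70% (-2.32, adjusted p = 0.0501) or intact blood library 2 (-1.87, adjusted p = 0.0537), and with only the blood groups in the fit (adjusted p = 0.0566). The splenic value passed without blood library 3 after PH70% (-2.24) or intact blood library 3 (-2.23), both of which enter the shared estimate of the spread.

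The number of members called moved with single libraries. Without intact blood library 3, 5 members were called lower in blood (Ncr1, Klrb1c, Klrk1, Prf1 and Tbx21), against 5.36% of 21062 features. The 3 resected blood libraries then lay below the remaining 2 intact ones for 10 of 10 members, against 28.8% of all features. The library left out was the lowest intact blood library for 9 of 10 members, so its removal itself favours this separation. The members also moved together, so they are not 10 separate results. In spleen 5 were called lower without intact blood library 3 (Ncr1, Klrb1c, Gzma, Nkg7 and Tbx21), against 1.89%. DESeq2 on all 12 libraries called 5 members lower in blood (Ncr1, Klrb1c, Klrk1, Gzma and Tbx21), against 8.03% of all features. Leaving out blood library 2 of either group left 0 called in blood. The blood count was 1 without any one of the 3 intact spleen libraries, blood library 1 or 3 after PH70% or intact blood library 1, and 4 without spleen library 3 after PH70%. The splenic count was 1 without spleen library 1 or blood library 3 after PH70%.

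The resection effects in blood and spleen were then compared with each other in an interaction term. It asks whether the difference between PH70% and intact mice varied with the tissue. None of the 10 members passed, against 0.283% of all features called in either direction, and the counts at an unadjusted p under 0.05 and with DESeq2 were also 0. The differences, blood effect minus spleen effect, ran from -0.69 ± 0.83 for Klrk1 to 1.61 ± 1.58 for Klre1, with a median of 0.81 against -0.12 over all features. The 95% confidence intervals were wide, from -0.91 to 3.27 for Gzma and from -1.49 to 1.63 for Tbx21, and each reached past 1 on the log2 scale. Single libraries moved this median. It came to 0.35 without intact blood library 3. Then 4 of 10 differences were negative (Klrk1 -1.13, Prf1 -0.82, Tbx21 -0.16 and Gzmb -0.11). Ncr1, Nkg7 and Eomes stayed positive, at 0.38, 0.55 and 0.31. The median was 0.31 without intact spleen library 2 and 0.37 without blood library 2 or spleen library 3 after PH70%. It was 0.52 without spleen library 2 after PH70% and 1.58 without spleen library 1 after PH70%.

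Blood was also set against spleen within each state of the liver. These contrasts use the same libraries as the resection contrasts and are not independent of them. In intact mice, 0 of 10 members were called higher in blood, against 3.86% of all features, or lower, against 3.49%. With DESeq2 the count was also 0, and at an unadjusted p under 0.05 it was 1, Gzma. The libraries did not overlap for Gzma alone, against 13.6% of all features higher in blood. Its lowest intact blood library (99.1 CPM) was above its highest intact splenic one (59.4 CPM), with a log2 difference of 1.53 ± 0.67 (adjusted p = 0.187). The log2 differences of the other members ran from -0.00 ± 0.49 for Tbx21 (95% confidence interval -1.10 to 1.09) to 1.45 ± 0.78 for Eomes. Without intact blood library 3 these intact differences were larger for all 10 members, for example 1.37 for Ncr1, 0.94 for Klrk1, 1.61 for Nkg7 and 2.00 for Eomes against 0.79, 0.41, 1.05 and 1.45, and adjusted p ran from 0.12 for Nkg7 to 0.767 for Tbx21.

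After resection, Gzma was higher in blood than in spleen, so 1 of 10 members was called higher, against 6.28% of all features, and none was called lower, against 6.87%. Its values were 29.3, 40.9 and 13.4 CPM in blood and 9.48, 1.86 and 1.43 CPM in spleen, a log2 difference of 2.71 ± 0.71 (95% confidence interval 1.13 to 4.29, adjusted p = 0.0259), or 6.54-fold. At an unadjusted p under 0.05 the count was 4, against 9.41% of all features. The libraries did not overlap for 3 members (Gzma, Nkg7 and Eomes), against 17.2% of all features higher in blood. Nkg7 differed by 2.06 ± 0.72 (adjusted p = 0.0714) and Eomes by 2.22 ± 0.81 (adjusted p = 0.0846). Both passed without intact blood library 3 (2.16 and 2.32), when 3 members were called higher against 8.61% of features. At the other end, Klrk1 (-0.29 ± 0.59, 95% confidence interval -1.60 to 1.03) and Tbx21 (0.07 ± 0.50, -1.05 to 1.18) had values near 0. The Gzma call was lost without spleen library 2 after PH70% (2.45, adjusted p = 0.0859), blood library 1 after PH70% (2.78, adjusted p = 0.0541) or blood library 2 after PH70% (2.41, adjusted p = 0.0777), and with only the resected groups in the fit (2.78, adjusted p = 0.0669). Eomes also passed without spleen library 1 after PH70% (3.71, adjusted p = 0.0215).

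To see whether the members kept their proportions, the counts of each were divided by the Ncr1 counts of the same library, a ratio that is free of library scaling and is read only across libraries. The ratio of Gzma was nearly constant in intact spleen, at 3.10, 3.13 and 3.17 counts per Ncr1 count, and stood at 4.02 and 3.79 in intact blood libraries 1 and 2. Intact blood library 3 held 22.3 Gzma counts per Ncr1 count. In contrast, its ratios for Prf1 (2.70 against 2.72 and 2.07), Nkg7 (1.75 against 1.79 and 1.44) and Eomes (1.63 against 1.68 and 1.02) were those of the other intact blood libraries. Gzma thus stood apart from the other members in this library, and Tbx21 did so less, at 1.37 against 0.418 and 0.349.

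After PH70% in blood, the ratios of 6 of the 9 other members lay above all intact blood libraries (Klrb1c, Klre1, Gzmb, Prf1, Nkg7 and Eomes), against 40.4% of all features. Prf1 went from 2.72, 2.07 and 2.70 to 5.65, 4.73 and 10.3 counts per Ncr1 count, and Gzmb from 1.23, 0.782 and 1.48 to 4.12, 3.58 and 6.10. In spleen 6 of 9 also lay above (Klrk1, Gzmb, Prf1, Nkg7, Eomes and Tbx21), but so did 88.3% of all features, and the Ncr1 counts of these libraries were 95, 34 and 7. Prf1 stood at 1.71, 2.07 and 2.76 in intact spleen and at 10.6, 9.94 and 37.6 after PH70%, where the last value rests on 7 Ncr1 counts. The Gzma ratio of 4.27, 2.50 and 8.29 in spleen after PH70% overlapped with the intact range. Ncr1, the shared denominator, had the most negative log2 fold change of the 10 members in both tissues, so the choice of denominator itself raises the ratios after PH70%, and they were not tested.

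**Figure D3:**
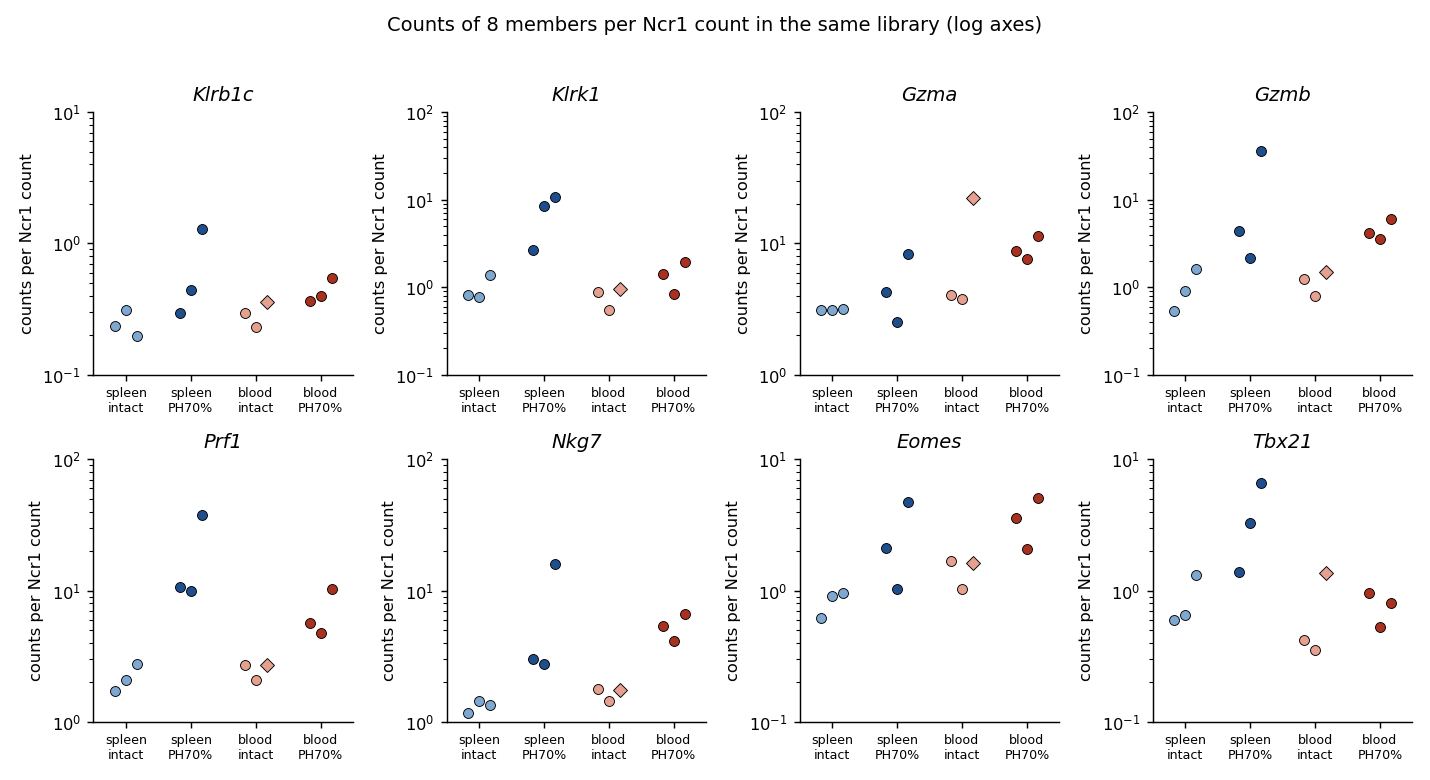
Counts of 8 members per Ncr1 count of the same library are plotted on log axes for the 12 libraries, with intact blood library 3 as a diamond. Gzma stands at 22.3 in that library against 4.02 and 3.79 in the other intact blood libraries, while Prf1, Nkg7, Eomes and Gzmb lie above the intact libraries in both tissues after PH70%.

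Over the 12 libraries the log2 CPM of a member correlated with the mean of the other 9 at Pearson's r of 0.799 (Gzmb) to 0.978 (Ncr1 and Klrb1c), with Klrk1 at 0.819, Tbx21 at 0.830 and Gzma at 0.899. The features outside the list whose pattern was most like the mean of the members, of 12739 features ranked, were Klrd1 (0.985), Klri2 (0.983), Klrb1a (0.982), Il27ra (0.968), Cd8a (0.968) and Klra7 (0.964). Klrd1 (CD94), Klri2, Klrb1a and Klra7 encode further lectin-like NK receptors, Il27ra a cytokine receptor chain and Cd8a the co-receptor of cytotoxic T cells. The points share library depth, sorting run and group, and the values are a description. Klrd1 measured 17.3, 20.4 and 3.47 CPM in intact blood and 5.37, 5.77 and 2.51 CPM after PH70%, and 6.08, 10.7 and 5.62 CPM in intact spleen and 1.99, 0.808 and 0.787 CPM after PH70%. Like Ncr1, Klrd1 overlapped in blood only through intact library 3 and was separate in spleen, with log2 fold changes of -1.59 (adjusted p = 0.107) and -2.65 (adjusted p = 0.0719).

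Genes of other cell types moved with the members, and their part in the result was not tested. Of the 12 T-cell markers measured, 8 were called lower in blood after PH70% (median -2.19), against 6.11% of all features. None was called lower in spleen, against 0.596% (median -1.36, 9 at an unadjusted p under 0.05). The T-cell marker sum was 1820 to 4073 CPM in intact blood, 431 to 780 CPM in blood after PH70%, 273 to 639 CPM in intact spleen and 124 to 221 CPM in spleen after PH70%. The highest intact blood sum was that of library 3, and the T-cell calls were not repeated without it. Intact blood libraries 1 and 2, at 1953 and 1820 CPM, also lay above all resected blood libraries. Neutrophil markers moved the other way, with 8 of 8 called higher in blood, against 7.8% of all features, and 2 of 8 in spleen, against 0.78%. They summed to 101 to 298 CPM in intact blood and 3513 to 18617 CPM after PH70%, and to 787 to 1747 CPM in intact spleen and 4971 to 14195 CPM after PH70%. Blood library 3 and spleen library 3 after PH70% held the highest neutrophil sums of their groups and the lowest sums of the members. The other resected libraries did not follow this order. Spleen library 2 had a neutrophil sum of 4971 CPM and a member sum of 23.5 CPM, against 5266 and 66.4 CPM in spleen library 1. Blood library 1 had 3513 and 106 CPM, against 4201 and 135 CPM in blood library 2. Of the 7 B-cell markers none was called in either tissue, but all 7 log2 fold changes were negative in both. Their median was -0.48 in blood and -0.71 in spleen, against -0.10 and 0.05 over all features. At an unadjusted p under 0.05 the count was 0 in blood and 2, both lower, in spleen. B-cell sums were 550 to 2492 CPM in intact blood and 750 to 1844 CPM after PH70%. In spleen they were 4254 to 4813 CPM and 1247.5 to 3758 CPM, without overlap, and lowest in library 3 after PH70%. Monocyte markers summed to 3573 to 9370 CPM in intact blood and 12881 to 15017 CPM after PH70%, and to 3436 to 3631 and 4330 to 4682 CPM in spleen. In blood 3 of 10 were called higher (Cd14, Itgam and Fcgr4), against 7.8% of all features, and in spleen none was called. The list did not move as one, since Ace had -1.17 ± 0.50 in blood and -1.97 ± 0.51 in spleen (adjusted p = 0.125 and 0.0759) and Ccr2 -1.09 ± 0.44 in spleen (adjusted p = 0.192). Mean Ly6c2 went from 53.5 to 35.9 CPM in blood, and mean Lyz2 from 1615 to 955 CPM in spleen. Of the 10 log2 fold changes, 8 were positive in blood and 7 in spleen. Lyz2 was the largest part of every blood sum. It measured 6802, 4511 and 2421 CPM in intact blood and 8351, 9043 and 5543 CPM after PH70%. Every marker of these 4 lists was above 0 in every library. In spleen the 4 haemoglobin genes had a median log2 fold change of 3.38 without overlap between the groups, and the 7 proliferation markers one of 1.91 with 7 of 7 positive, and none of either list was called by edgeR. At an unadjusted p under 0.05 these counts were 4 and 0.

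**Figure D4:**
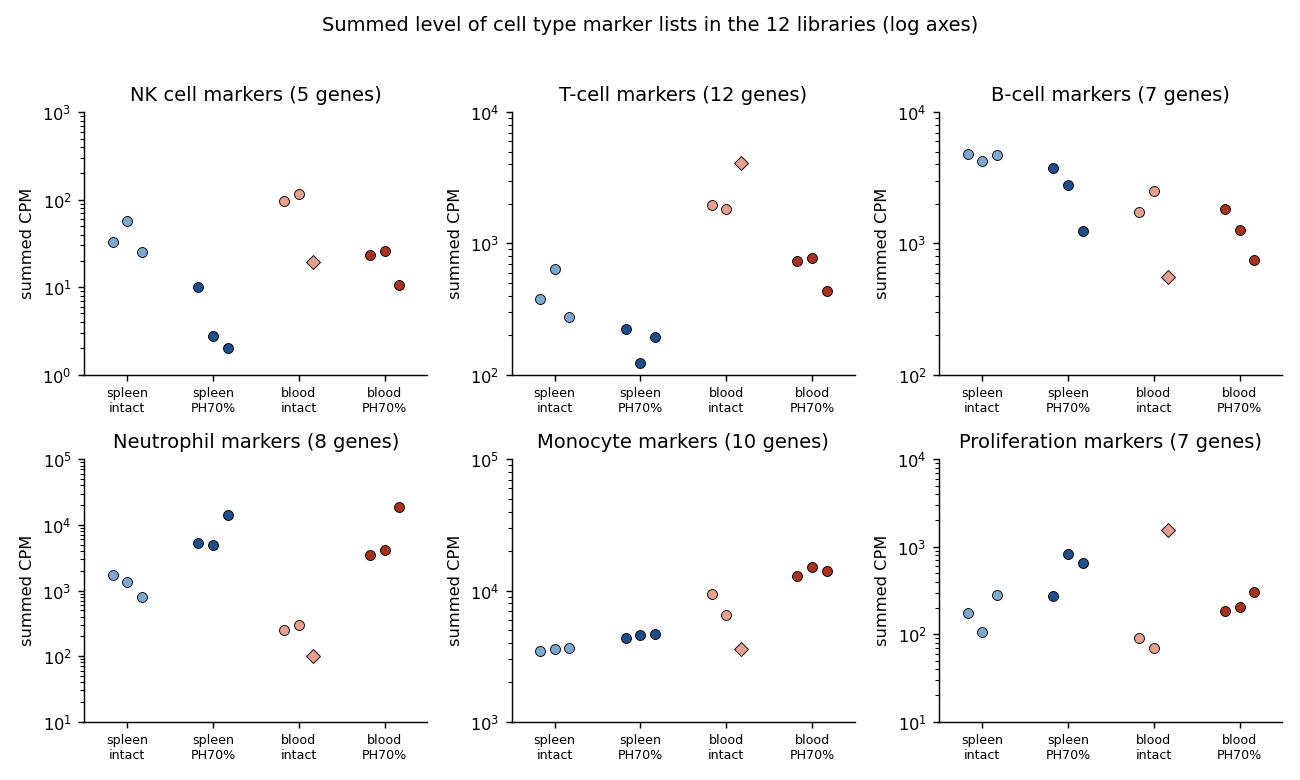
The summed CPM of 6 marker lists is plotted on log axes for the 12 libraries, with intact blood library 3 as a diamond. T-cell markers lie lower after PH70% in both tissues, NK cell markers do so except for that library, neutrophil markers lie higher, and the proliferation markers of intact blood library 3 reach 1569 CPM.

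A wider set of 82 NK pathway genes, chosen by role, was read in the same fit, and 75 of them passed the low-count filter. In blood 11 were called lower after PH70%, against 6.11% of all features, and 15 higher, against 7.8%. In spleen 1 was called lower, against 0.596%, and 2 higher, against 0.78%. Negative log2 fold changes prevailed in both tissues, with 48 of 75 in blood (median -0.64 against -0.10 over all features) and 51 of 75 in spleen (median -0.78 against 0.05). At an unadjusted p under 0.05, 19 were lower and 15 higher in blood, and 31 lower and 7 higher in spleen.

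The other NK receptors, of which 19 were tested, came closest to the members. In blood 16 of 19 log2 fold changes were negative (median -1.43) and 1 of 19 receptors was called lower, against 6.11% of all features. It was Cd96 (-1.53 ± 0.40, adjusted p = 0.0246), which binds nectin-family ligands. This call was lost without blood library 1, 2 or 3 after PH70% (-1.58, -1.75 and -1.29) or intact blood library 1 or 2 (-1.20 and -1.51). In spleen 17 of 19 were negative (median -1.74), and the libraries did not overlap for 14, against 17.7% of all features. None passed, although 14 had an unadjusted p under 0.05. Signalling adaptors split by direction in blood. Tyrobp (1.82) and Fcer1g (1.94), which encode DAP12 and the Fc receptor gamma chain and serve myeloid cells as well as NK cells, rose, while Sh2d1a (-3.14), Zap70 (-1.67) and Cd247 (-1.59), used by T and NK cells, fell. Hcst, which encodes the NKG2D adaptor DAP10, had a value of 0.40 ± 0.43 (adjusted p = 0.546), in contrast to Klrk1. The size of the Sh2d1a value rested on intact blood library 3, where it stood at 61.4 CPM against 9.61 and 9.53 CPM, and without that library it was -1.66 (adjusted p = 0.0350). The Zap70 value without it was -1.09 (adjusted p = 0.0484). Sh2d1a and Zap70 did not pass without blood library 2 (-3.25 and -1.69) or 3 (-2.81 and -1.49) after PH70%, while the calls of Tyrobp, Fcer1g and Cd247 held without any single library.

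Granule genes showed the same split. In blood Srgn (2.60), which encodes the granule proteoglycan serglycin, Lamp1 (1.56), Ctsc (1.42), the activator of granzymes, and Stxbp2 (1.06) rose with 2 further genes, whereas Tnfsf10 (-1.28), which encodes TRAIL, and the serpin Serpinb6b (-1.35) fell. Serglycin, LAMP1 and cathepsin C are also abundant in myeloid cells. Stxbp2 did not pass without intact blood library 3 (0.94, under the limit on the fold change) or blood library 3 after PH70% (0.92), and Ctsc not without blood library 2 after PH70% (1.21). Serpinb6b did not pass without blood library 1 or 3 after PH70% (-1.37 and -1.07) or intact blood library 1 or 2 (-1.25 and -1.18). The calls of Srgn, Lamp1 and Tnfsf10 held without any single library. The lymphocyte granzymes outside the members did not pass in either tissue: Gzmm had -0.53 ± 0.42 in blood and -1.61 ± 0.43 in spleen (adjusted p = 0.403 and 0.0805), and Gzmk -2.24 ± 1.45 and -2.73 ± 1.503 (adjusted p = 0.296 and 0.337). Fasl, the ligand of the death receptor Fas, had -1.30 ± 0.65 and -1.88 ± 0.66 (adjusted p = 0.178 and 0.147).

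Among the factors, Id2, which is required for innate lymphocytes and is also made in myeloid cells, rose in both tissues, by 1.12 ± 0.14 in blood (adjusted p = 0.0013) and 1.07 ± 0.14 in spleen (adjusted p = 0.0180). The splenic Id2 call was lost without intact spleen library 1 or 2 (1.02 and 1.13) or spleen library 3 after PH70% (1.02). Prdm1 (1.89) and Zeb2 (1.19) rose in blood, and Ets1 (-1.95), Tox (-1.61) and Gata3 (-4.67) fell. Gata3 stood at 258 CPM in intact blood library 3 against 21.3 and 18.7 CPM in libraries 1 and 2, and without that library its value was -2.36 (adjusted p = 0.0142). Tox (-1.11, adjusted p = 0.0609) and Zeb2 (0.85, adjusted p = 0.0598) did not pass without it. Without blood library 3 after PH70% Gata3 (-4.34), Tox (-1.45) and Prdm1 (1.62) did not pass either, nor did Tox (-1.57) and Prdm1 (1.87) without blood library 2 after PH70%. The Zeb2 call was lost without any single library but blood library 1 after PH70%, with values from 0.85 to 1.42. The calls of Id2 and Ets1 in blood held without any single library.

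In the cytokine and trafficking group, S1pr5, the sphingosine 1-phosphate receptor with which NK cells leave tissues, fell in both tissues. It measured 16.9, 21.6 and 4.26 CPM in intact blood and 3.997, 2.75 and 1.01 CPM in blood after PH70%, and 14.2, 11.8 and 8.15 CPM in intact spleen and 1.28, 1.22 and 1.77 CPM in spleen after PH70%. All libraries of resected mice were below all intact ones in both tissues. The log2 fold changes were -2.46 ± 0.62 (adjusted p = 0.0209) and -2.99 ± 0.64 (adjusted p = 0.0479). The blood call was lost without blood library 2 or 3 after PH70% (-2.52 and -2.07) or intact blood library 1 or 2 (-2.30 and -2.04), and the splenic call was lost without any single library but blood library 3 after PH70% or intact blood library 3, with values from -3.19 to -2.81. Il12rb2 (-2.05) fell and Il15ra (2.10) rose in blood, the latter not without intact blood library 1 or 3 (2.27 and 1.74) or blood library 2 or 3 after PH70% (2.17 and 1.75). Il2rb, the chain shared by the receptors for interleukins 2 and 15, had -0.92 ± 0.59 and -1.23 ± 0.60 (adjusted p = 0.296 and 0.273), Ifng -1.36 ± 0.72 and -1.66 ± 0.72 (adjusted p = 0.202 and 0.224) and the chemokine gene Ccl5 -0.77 ± 0.56 and -1.93 ± 0.57 (adjusted p = 0.354 and 0.101) in blood and spleen.

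Of 8 ligands of NK receptors tested, genes made by the cells that NK cells meet, 3 rose in blood (Raet1d, Raet1e and Nectin2), against 7.8% of all features. None was called lower, and 3 of 8 log2 fold changes were negative. Raet1d and Raet1e encode ligands of NKG2D, the product of Klrk1. Raet1d measured 0.138, 0.257 and 0.306 CPM in intact blood and 1.89, 3.91 and 6.16 CPM after PH70%, a rise of 4.07 ± 0.82 on the log2 scale (adjusted p = 0.00807). Raet1e went from 0.193, 0.128 and 0.197 CPM to 1.10, 2.07 and 2.96 CPM, a rise of 3.54 ± 0.84 (adjusted p = 0.0160), which did not pass without intact blood library 2 (3.40). Nectin2, a ligand of the receptors CD226 and TIGIT, rose in blood by 3.07 ± 0.53 (adjusted p = 0.00398) and in spleen by 2.50 ± 0.51 (adjusted p = 0.0420). Ulbp1, another NKG2D ligand, named after its values were seen, had the opposite sign. It measured 3.77, 4.06 and 14.2 CPM in intact blood and 2.50, 2.65 and 2.98 CPM after PH70%, without overlap, and its log2 fold change was -1.43 ± 0.47 (adjusted p = 0.0547). Its highest value, 14.2 CPM, was that of intact blood library 3, and no fold change of Ulbp1 without that library is given. H60b, also an NKG2D ligand, overlapped in blood, at 2.37, 1.49 and 0.415 CPM in intact mice and 2.29, 2.11 and 2.25 CPM after PH70%. Raet1d, Raet1e and Ulbp1 thus did not share a direction in blood. The splenic Nectin2 call was lost without any single library but blood library 3 after PH70% or intact blood library 3, with values from 2.06 to 2.87.

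**Figure D5:**
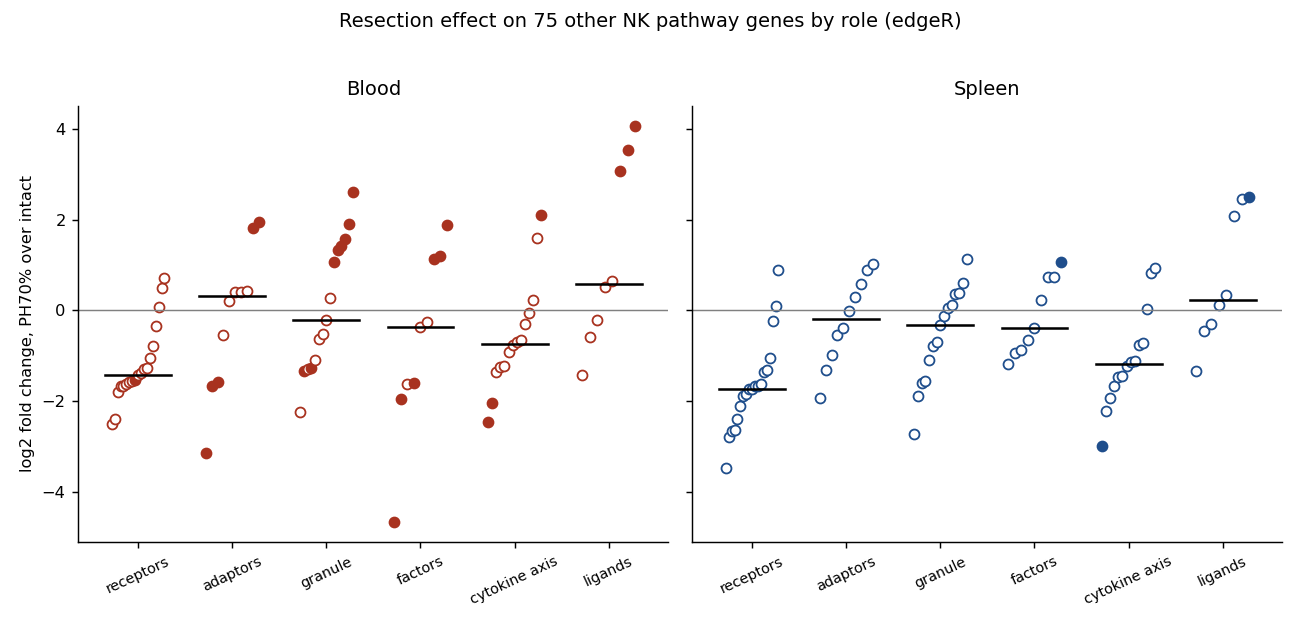
Each point is 1 of 75 other NK pathway genes, grouped by role along the x axis, with its log2 fold change of PH70% over intact in blood (left) and spleen (right). Filled points were called and lines are group medians, -1.43 for receptors in blood and -1.74 in spleen, while called genes of the adaptors, granule genes and factors in blood lie on both sides of 0.

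Between tissues, Cd226, an activating receptor for nectin-family ligands, was higher in blood both in intact mice (2.77 ± 0.51, adjusted p = 0.0118) and after PH70% (3.86 ± 0.54, adjusted p = 0.00197). Cd96 was higher in blood by 1.74 ± 0.41 and 1.89 ± 0.41 (adjusted p = 0.0284 and 0.0124). In intact mice, Cd226 did not pass without spleen library 1 (2.79), and Cd96 not without spleen library 1 or 3 (1.72 and 1.64) or blood library 1 or 2 (1.5002 and 1.81). After PH70%, Itga2, the integrin chain CD49b carried by NK cells, was also higher in blood (2.52), though not without spleen library 2 (2.37), and the adaptor gene Sh2d1b1 was lower (-2.22). The receptor Slamf7 (-2.52, adjusted p = 0.0156) and Il12rb1 (-1.80, adjusted p = 0.0341) were also called lower in blood. Slamf7 did not pass without spleen library 1 (-1.85) or blood library 2 or 3 (-2.64 and -2.02) after PH70%, and Il12rb1 not without any of 9 libraries (-1.83 to -1.34). Of the 75 genes, 8 were called higher in blood in intact mice, against 3.86% of all features, and 0 lower, against 3.49%. Without intact blood library 3, Gata3 (1.84, adjusted p = 0.0577) and Tox (1.26, adjusted p = 0.0648) of these did not pass. Cd226, Cd96, Cd247, Sh2d1a, Zap70 and Pvr did. After PH70% 14 were called higher in blood, against 6.28%, and 4 lower, against 6.87%. Ccl5 (1.96) and Fasl (2.22) were called higher too, and each call was lost without any of 9 libraries, with values from 1.75 to 2.45 and from 2.03 to 2.54. Of the 12 T-cell markers, 8 were called higher in blood in intact mice, against 3.86% of all features, and 6 after PH70%, against 6.28%. These T-cell calls were not repeated without intact blood library 3, whose marker sum was 4073 CPM against 1953 and 1820 CPM in libraries 1 and 2.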

How the data were processed

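Bulk mRNA sequencing libraries of CD115+ cells were read as 12 tables of estimated counts per entry. Per the labels the authors aligned strand-specific libraries (DNBSEQ) with STAR to GRCm39, and the study's methods name an Illumina instrument. The counting tool is not given in the sources used here. The deposited estimated counts were rounded. Of 67088 entries, 24256 were symbols and 40274 accessions, 25340 of which were matched to genes of the RefSeq GRCm38.p6 table and summed with them. The 2558 unassigned entries (1.75% to 4.33% of a library) were left out. No member had accession entries.

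Groups were taken from sample titles. In edgeR 4.0.16 (R 4.3.3, limma 3.58.1), filterByExpr kept 20135 features, TMM factors were computed, and 1 robust quasi-likelihood fit over the 4 groups gave all contrasts. P-values were adjusted by Benjamini-Hochberg over all features tested, and features past both an adjusted p of 0.05 and a 1-unit log2 change in either direction were called. The common dispersion was 0.312. Correlations used log2 CPM with a prior count of 2. The test was tested on simulated data (200 of 20135 features changed), where it recovered 66% of log2 changes of 2 and 85% of 3 in blood and 69% and 76% in spleen, with 7 and 1 false calls among 19935. Simulated counts were drawn independently for each feature and library around a common mean, with the fitted trend of the dispersion. Changed features had a mean above 1 CPM. The simulation held no outlying library and no shift shared by many genes, so its rates do not carry over to the real libraries.

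The members and lists were chosen with earlier results of these data known. Named genes are the 10 members, in each NK list up to 3 called genes of smallest p per direction and comparison, 9 fixed genes (Klrd1, Il2rb, Ccl5, Ifng, Gzmk, Gzmm, Fasl, Tyrobp and Hcst), list markers and the 6 most similar features. Plasmacytoid dendritic cell markers (7 genes) gave 1 call, lower, in blood, against 6.11% of all features. Basophil and mast cell markers (6 genes) gave none in either resection contrast. Replicates differed by more than sampling noise (chi-square divided by its degrees of freedom 19.7 to 560). Alternatives were DESeq2 1.42.0, RLE factors, haemoglobin genes left out, other filters, no limit on the fold change, unadjusted p, unsummed entries, only the groups compared, a replicate block and each library left out.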

Additional observations from a re-analysis of the deposited data

How the results depend on the processing

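The direction of all 10 members in both resection contrasts was negative under every alternative that gave a value, with log2 fold changes between -3.37 and -0.47 in blood and between -5.70 and -0.64 in spleen. The number of members called was less stable. In blood it was 2, and 5 with DESeq2, 1 without the low-count filter and 3 of 7 with at least 10 counts in every library. It was 6 there at an unadjusted p, 1 with only the groups compared and 0 to 5 with 1 library left out. In spleen it was 0, and 7 with DESeq2, 1 with haemoglobin genes left out and 2 of 7 with at least 10 counts in every library. It was 8 there at an unadjusted p and 0 to 5 with 1 library left out. For blood against spleen it was 0 in intact mice and 1 at an unadjusted p, and after PH70% it was 1, and 3 with DESeq2, 4 at an unadjusted p, 0 with only the groups compared and 0 to 3 with 1 library left out. Ncr1, Klrb1c and Klre1 did not pass the filter of 10 counts in every library, so 7 members were tested under it. The cause of these moves was not tested.

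Replicate numbers were not taken to pair the samples. Deviations from the group means of same-numbered libraries correlated at -0.05 to 0.19, over 0.1 in 2 of 18 pairs. Both lie between spleen and blood after PH70%, where the same-number values were 0.042, 0.131 and 0.189 and blood library 1 correlated more with spleen library 2 (0.0734). With the replicate number as a block, 5 members were called lower in blood (4.38% of all features), 2 lower in spleen (0.333%), 0 in intact mice, 4 higher in blood after PH70% (5.59%) and 0 in the difference between tissues.

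Some values near 0 turned sign with 1 library left out. For blood against spleen after PH70%, Klrk1 ranged from -0.57 to 0.082 and Tbx21 from -0.15 to 0.54. For the difference of the resection effects, Gzmb ranged from -0.13 to 0.89, Prf1 from -0.82 to 0.49 and Tbx21 from -0.25 to 0.47. For blood against spleen in intact mice, Tbx21 ranged from -0.20 to 0.32, and it was above 0 with DESeq2 (0.075), RLE factors (0.075), haemoglobin genes left out (0.11), no low-count filter (0.068) and unsummed entries (0.077). Depth limits Klre1 and Ncr1 in spleen after PH70%, at 0 to 26 and 7 to 95 counts.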
